A study of Mus musculus with 8 samples.

Results

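The genes described are the chemokine receptors Ccr4, Ccr6, Ccr7, Ccr8, Ccr9, Cxcr3, Cxcr4, Cxcr5 and Cxcr6, taken by symbol as a list of receptors that T cells are known to use. The deposited count table held all 9 of them among its 19330 genes. All 9 passed the filter on low counts and stood among the 16434 genes tested. The rule that picks them uses no measured value.

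RNA-seq was done on regulatory T cells (Tregs), CD4+ T cells that restrain immune responses. The oxPAPC group held 4 libraries of naive CD4+ T cells from B6 mouse spleen that were polarized into Tregs in culture for 3 days with oxPAPC, a mixture of oxidized products of the phospholipid PAPC. The control group held 4 libraries of the same cells polarized for the same 3 days without it. The labels give no dose of oxPAPC, no vehicle and no age of the mice, and do not state if each replicate is its own mouse or culture. The p-values therefore cover the spread among these 8 libraries, which may be technical.

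Chemokine receptors are G protein-coupled receptors in the cell membrane that read gradients of secreted chemokines and steer the movement of leukocytes. Binding of a chemokine activates Gi proteins, which signal to the cytoskeleton and to integrins, and the receptor is then phosphorylated, bound by arrestins and internalized. Naive T cells carry Ccr7, which brings them to the T cell zone of lymph nodes, whereas activated T cells and Tregs gain receptors for skin, gut, B cell follicles or inflamed tissue. In bulk RNA, fewer cells that carry a receptor and less of its RNA per cell cannot be told apart.

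The promoters of the receptors with the smallest adjusted p-values are shown because they are the stretches of DNA from which these RNAs start. The sequences are from RefSeq on GRCm38.p6 and cover the 250 bases before a RefSeq start, read 5′ to 3′ on the strand of the gene. They lie at chr17:8235793-8236042 on the plus strand (Ccr6), chr9:120091883-120092132 on the plus strand (Ccr8) and chr9:114496545-114496794 on the minus strand (Ccr4). Capitals mark a motif match.
Ccr6: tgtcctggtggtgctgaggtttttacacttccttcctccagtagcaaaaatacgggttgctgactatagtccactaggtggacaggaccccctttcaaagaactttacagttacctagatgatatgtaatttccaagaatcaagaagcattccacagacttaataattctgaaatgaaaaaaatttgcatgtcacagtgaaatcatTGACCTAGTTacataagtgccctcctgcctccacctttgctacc
Ccr8: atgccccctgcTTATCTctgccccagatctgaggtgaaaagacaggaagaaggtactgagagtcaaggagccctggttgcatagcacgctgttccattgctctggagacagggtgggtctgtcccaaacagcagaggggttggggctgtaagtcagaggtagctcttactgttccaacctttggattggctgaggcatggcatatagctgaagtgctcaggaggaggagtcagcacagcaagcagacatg
Ccr4: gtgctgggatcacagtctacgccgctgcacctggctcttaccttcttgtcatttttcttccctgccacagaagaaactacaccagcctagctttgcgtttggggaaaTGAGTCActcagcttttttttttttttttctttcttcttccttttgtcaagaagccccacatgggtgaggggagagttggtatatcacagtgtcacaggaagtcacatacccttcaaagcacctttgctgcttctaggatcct
The capitals in the Ccr6 promoter match, on the other strand, the response element read by ROR nuclear receptors, which was searched as AA, any base, then TAGGTCA. The match begins 44 bases before the start and holds the shorter motif AGGTCA within it. The longer motif is found on either strand in 58 of 32851 RefSeq promoter windows of the same length, which is 0.177%, and the shorter in 14%. The capitals in the Ccr8 promoter are the GATA motif AGATAA on the other strand, 239 bases before the start, a motif present in 9.99% of windows. Those in the Ccr4 promoter match the AP-1 motif TGANTCA 143 bases before the start, which 6.75% of windows hold. RefSeq entries were matched for 7 receptors, with 8 starts in all. The window of the second Ccr6 start, which is not printed, holds the GATA motif AGATAA 70 bases before that start. The GATA motif is thus in 2 of the 8 windows. None of these 8 windows held the T-box motif AGGTGTGA (1.12% of all windows), the interferon-stimulated motif of GAAA, any 2 bases and GAAA (2.98%), the NF-kB motif of GGGA, any 2 bases and TTCC (1.21%) or the Ets motif CCGGAAG (6.91%). A match describes letters and was not tested as a binding site, and the motifs were chosen with these sequences in view.

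In GRCm38 the receptors lie on 5 chromosomes, with 5 of the 9 on chromosome 9, where Ccr9 (chr9:123678439-123784330) and Cxcr6 (chr9:123806475-123811760) are neighbours. Chromosome 9 also holds Cxcr5 at chr9:44511787-44561877, Ccr4 at chr9:114490316-114504916 and Ccr8 at chr9:120092114-120094906. Ccr6 is at chr17:8236043-8257141, Ccr7 at chr11:99144196-99155077, Cxcr4 at chr1:128588199-128592293 and Cxcr3 at chrX:101731535-101734269. For 6 receptors no exon base is shared with another gene and none lies inside one. Of the exon bases of Ccr9, 21.5% are shared with other genes, and 3.30% of those of Cxcr5 are shared with Bcl9l on the opposite strand. Cxcr6 lies inside Fyco1 on the opposite strand without sharing exon bases. The sources used here do not say whether reads were counted by strand, so reads of such pairs cannot be told apart.

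The libraries held 14017583 to 21619731 counts. The noncoding RNA Gm26917 took 19.4%, 16.6%, 9.51% and 9.35% of the counts of oxPAPC replicates 1 to 4, against 19.7%, 29.1%, 8.59% and 16.0% in control replicates 1 to 4. All 10 T cell markers examined were expressed and 1 of them, Cd28, fell, with 363 ± 116 CPM (counts scaled to library size and TMM factor) of Cd4 in oxPAPC libraries and 469 ± 76.8 CPM in control libraries (SD, n = 4 each). The call of Cd28 was lost with scaling by library size. Of 8 Treg markers 0 passed the test by edgeR (3 at an unadjusted p under 0.05, and 2 by DESeq2), and the lineage factor Foxp3 averaged 145 ± 52.1 CPM in oxPAPC and 154 ± 34.1 CPM in control libraries (SD, n = 4 each). The summed Treg markers stood at 1858 ± 301 CPM in oxPAPC and 1559 ± 168 CPM in control libraries (two-sided exact permutation p = 0.171). Il2ra alone made up 821 CPM of the sum in oxPAPC and 541 CPM in control libraries. The log2 fold change was above 0 for 4 of the 8 markers. Low levels of markers of other spleen cells were also present, and 5 of 9 tested B cell markers rose, 1 of 2 CD8 markers, 1 of 3 natural killer cell markers, 1 of 4 macrophage markers, 1 of 3 dendritic cell markers and 1 of 1 gamma delta T cell markers. The last, Trgc2, was not called without control replicate 2 or 4 or without oxPAPC replicate 2, 3 or 4, nor with the Gm26917 share in the fit. By comparison, 6.75% of all genes tested were called higher. Of the markers looked for, 3 of 6 for natural killer cells (Ncr1, Klrb1c and Klra8) were not in the deposited table. Also absent from it were 3 of 8 for macrophages (Cd14, Itgam and Fcgr1) and 3 of 7 for dendritic cells (Clec9a, Siglech and Cd209a). For gamma delta T cells 1 of 4, Sox13, was absent. Summed B cell markers reached 25.0 to 32.9 CPM in oxPAPC and 16.0 to 21.4 CPM in control libraries. CD8 markers reached 10.9 to 18.7 CPM in oxPAPC and 6.72 to 8.90 CPM in control libraries, and natural killer cell markers 3.58 to 5.16 CPM in oxPAPC and 1.06 to 2.59 CPM in control libraries. Macrophage markers reached 9.09 to 11.3 CPM in oxPAPC and 3.77 to 4.80 CPM in control libraries, and dendritic cell markers 12.5 to 15.3 CPM in oxPAPC and 6.19 to 10.8 CPM in control libraries. For each of these 5 sums the two-sided exact permutation p was 0.0286, the smallest that 4 against 4 libraries allow, and that of dendritic cells was 0.0571 with scaling by library size. At this size such a p says only that the groups did not overlap, which held for 19.4% of all genes tested. Of the mean dendritic cell sum, Zbtb46 made up 11.5 of 13.6 CPM in oxPAPC and 8.69 of 9.34 CPM in control libraries. By itself Zbtb46 did not pass (edgeR adjusted p = 0.182). Cd8a made up 6.81 of 13.1 CPM of the mean CD8 sum in oxPAPC and 2.17 of 8.13 CPM in control libraries. Klrk1 made up 2.66 of 4.26 CPM of the natural killer cell sum and 0.601 of 2.03 CPM. Mpeg1 made up 4.02 of 10.1 CPM of the macrophage sum and 0.203 of 4.37 CPM. The other tested genes of the CD8, natural killer cell and macrophage lists did not pass. Gamma delta T cell markers overlapped, at 1.04 to 2.38 CPM in oxPAPC and 0.920 to 2.24 CPM in control libraries (p = 0.257 in the same permutation test).

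The transcripts of 2 receptors rose with oxPAPC, Ccr6 and Ccr8, both to a little under double the control level, and 0 fell by edgeR or DESeq2, with 1 lower at an unadjusted p under 0.05 by edgeR. The other 7 did not pass the test. Across all genes tested, 6.75% were called higher and 6.52% lower, so 2 of 9 called is to be read against a background of 13.3% called in either direction. A call is an adjusted p under 0.05 in the quasi-likelihood test of edgeR, adjusted by Benjamini-Hochberg over all genes. The estimated log2 fold change, oxPAPC over control, was above 0 for 6 receptors and below 0 for 3. Its 95% interval lay above 0 for Ccr4, Ccr6, Ccr8, Cxcr3 and Cxcr6, below 0 for Ccr9, and covered 0 for Ccr7, Cxcr4 and Cxcr5. The median log2 fold change was 0.53 over the 9 receptors and -0.01 over all genes tested. The groups did not overlap for 3 of the 9, Ccr6, Ccr8 and Cxcr3, each higher with oxPAPC, against 9.5% of all genes tested that were higher without overlap, 9.86% lower and 19.4% either way.

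**Figure D1:**
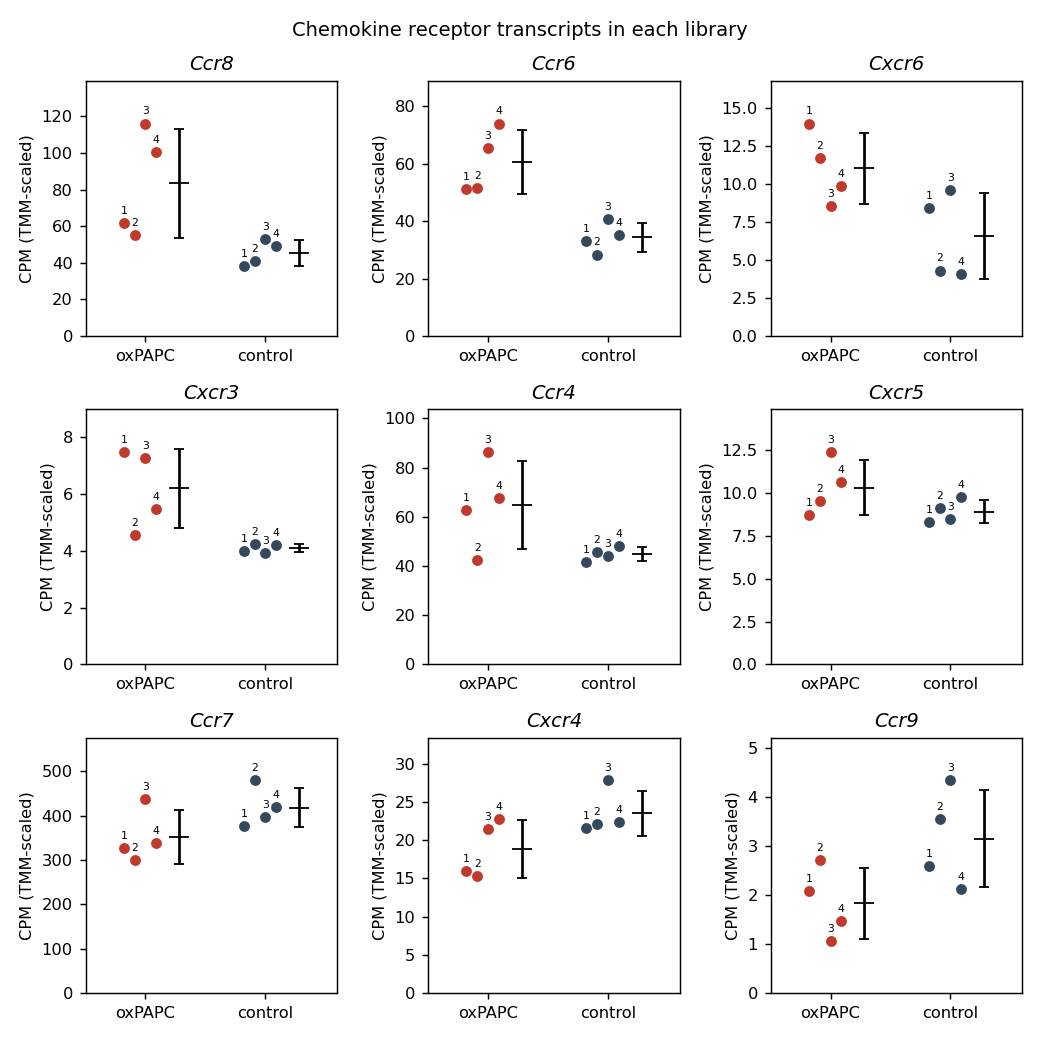
Each panel plots 1 receptor as CPM after TMM scaling on a linear axis from 0, with a numbered point for each of the 4 oxPAPC libraries (left) and the 4 control libraries (right), and a bar for the mean ± SD. The oxPAPC points lie above all control points for Ccr8, Ccr6 and Cxcr3, and the groups overlap in the other 6 panels.

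**Figure D2:**
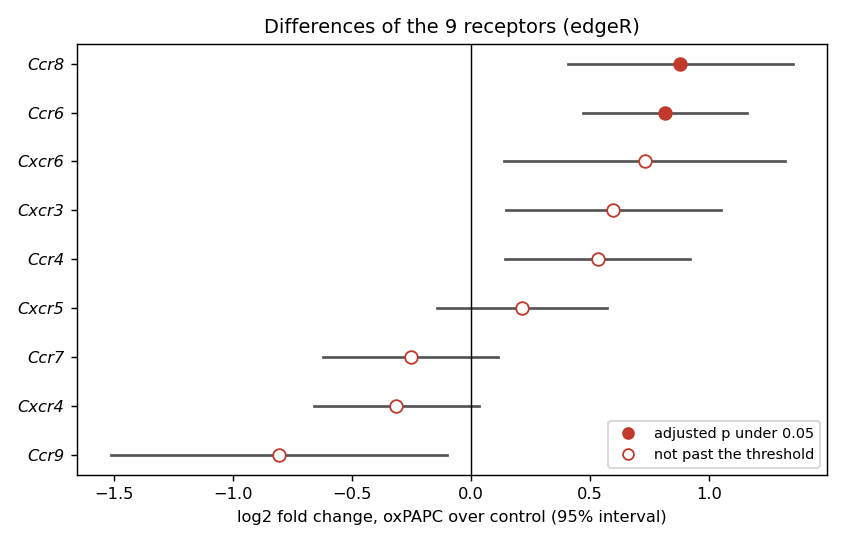
Points are log2 fold changes, oxPAPC over control, from edgeR and lines are 95% intervals, with filled points for an adjusted p under 0.05. Ccr8 (0.88) and Ccr6 (0.82) are filled, and the intervals of Cxcr5, Ccr7 and Cxcr4 cover 0.

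Per length of transcript, the receptors ranked in the same order in both groups, with Ccr7 highest and Ccr9 lowest. The following values are CPM per kilobase of transcript, as mean ± SD over 4 libraries of a group. Ccr7 stood at 177 ± 30.8 in oxPAPC and 211 ± 22.4 in control libraries. Ccr8 came next, with 71.0 ± 25.3 in oxPAPC and 38.5 ± 5.89 in control libraries. The lead of Ccr7 over Ccr8 was 2.50-fold in oxPAPC and 5.49-fold in control libraries, as a ratio of means. Ccr6 followed with 34.5 ± 6.38 in oxPAPC and 19.6 ± 2.88 in control libraries, and Ccr4 with 23.1 ± 6.41 in oxPAPC and 16.0 ± 0.978 in control libraries. Cxcr4 held the middle, at 10.5 ± 2.09 in oxPAPC and 13.0 ± 1.61 in control libraries. The lower levels belonged to the CXC receptors of activated, follicular and Th1 cells. Cxcr6 had 5.77 ± 1.24 in oxPAPC and 3.45 ± 1.48 in control libraries. Cxcr5 had 3.63 ± 0.559 in oxPAPC and 3.14 ± 0.230 in control libraries, and Cxcr3 had 3.57 ± 0.809 in oxPAPC and 2.36 ± 0.0837 in control libraries. Ccr9 was lowest at 0.353 ± 0.139 in oxPAPC and 0.606 ± 0.191 in control libraries. Neighbours in this order whose libraries overlapped were Ccr6 with Ccr4 and Cxcr5 with Cxcr3 in the oxPAPC group, and Ccr6 with Ccr4, Ccr4 with Cxcr4 and Cxcr6 with Cxcr5 in the control group. The ranges of all other neighbours did not overlap.

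**Figure D3:**
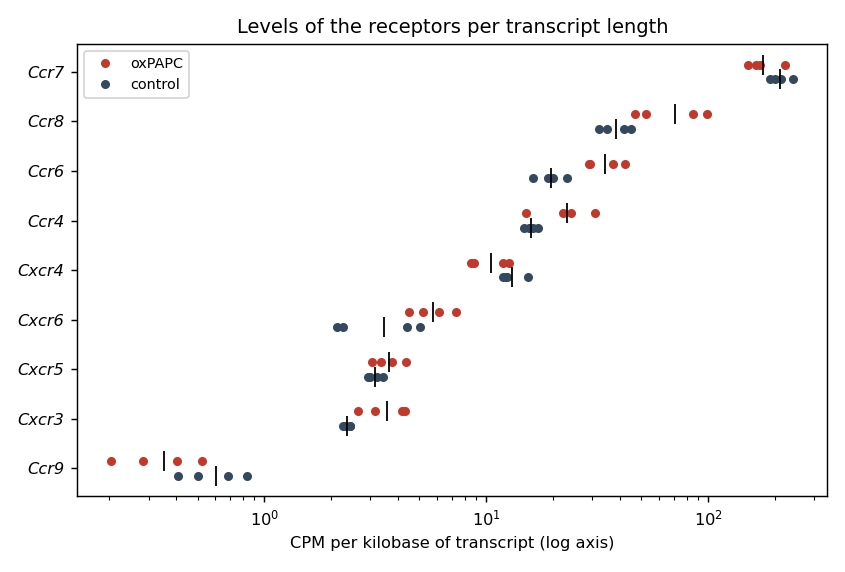
Levels are CPM per kilobase of transcript on a log axis, with 1 point per library (oxPAPC above control in each row) and a tick at the group mean. The order from Ccr7 to Ccr9 is the same in both groups, and the points of Ccr6 and Ccr4 overlap in both.

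Ccr6 is the receptor of the chemokine Ccl20 and is known from Th17 cells, B cells and Tregs of gut and other barrier tissue. Its level was 51.1, 51.4, 65.4 and 74.0 CPM in oxPAPC replicates 1 to 4, against 33.2, 28.4, 40.6 and 35.2 CPM in control replicates 1 to 4. Each oxPAPC library was above each control library, and oxPAPC replicates 3 and 4 were highest. The means were 60.5 ± 11.2 CPM in oxPAPC and 34.3 ± 5.06 CPM in control libraries (SD, n = 4 each), a 1.76-fold difference. The log2 fold change was 0.82 ± 0.16 (SE, 95% interval 0.47 to 1.16, edgeR adjusted p = 0.00449). The call was made in 18 of 18 alternative settings, with adjusted p-values of 0.000112 to 0.0192. The ROR element printed above lies before one of its 2 RefSeq starts. B cells also carry Ccr6, and 5 of 9 tested B cell markers rose (among them Ms4a1, Pax5, Blnk and Ebf1), while Cd79a and Cd79b, parts of the B cell receptor, had log2 fold changes of 0.07 and -0.58 and did not pass. The summed level of the list was 25.0 to 32.9 CPM in oxPAPC and 16.0 to 21.4 CPM in control libraries, and its part in the difference of Ccr6 was not tested.

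Ccr8, the receptor of Ccl1, is known as a receptor of Tregs in skin and tumours and of Th2 cells. Its level was 61.6, 55.1, 116 and 101 CPM in oxPAPC replicates 1 to 4, against 38.0, 41.0, 52.8 and 49.3 CPM in control replicates 1 to 4. All oxPAPC libraries exceeded all control libraries, but oxPAPC replicates 1 and 2 did so by little and replicates 3 and 4 by much. The means were 83.4 ± 29.7 CPM in oxPAPC and 45.3 ± 6.92 CPM in control libraries (SD, n = 4 each), a 1.84-fold difference. The log2 fold change was 0.88 ± 0.22 (SE, 95% interval 0.41 to 1.36, edgeR adjusted p = 0.0173). The call was lost, in the same edgeR test, without control replicate 1 (adjusted p = 0.0585), control replicate 2 (0.0533) or oxPAPC replicate 4 (0.0516), and its adjusted p ranged from 0.00299 to 0.0585 over 18 alternatives. The high oxPAPC replicates 3 and 4 are those with the lower shares of Gm26917. With the Gm26917 share added to the fit, a choice made after the data were seen, the log2 fold changes were 0.66 ± 0.20 for Ccr8 (SE, edgeR adjusted p = 0.0469) and 0.67 ± 0.13 for Ccr6 (0.00514).

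Ccr4, the receptor of Ccl17 and Ccl22, directs Th2 cells and Tregs to skin and to dendritic cells. It had 62.5, 42.6, 86.3 and 67.6 CPM in oxPAPC replicates 1 to 4, against 41.6, 45.7, 43.9 and 48.0 CPM in control replicates 1 to 4. In all, 3 of the 4 oxPAPC libraries were above all controls and replicate 2 lay within their range, so the groups overlap. Its log2 fold change was 0.53 ± 0.18 (SE, 95% interval 0.14 to 0.92, edgeR adjusted p = 0.0678), which did not pass. Without oxPAPC replicate 2 it was 0.69 and passed (edgeR adjusted p = 0.0118).

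Cxcr3 binds the interferon-inducible chemokines Cxcl9, Cxcl10 and Cxcl11 and marks Th1 cells and the Tregs that control them. Its level was 7.46, 4.56, 7.24 and 5.48 CPM in oxPAPC replicates 1 to 4, against 3.99, 4.23, 3.93 and 4.19 CPM in control replicates 1 to 4. The groups did not overlap, and the control libraries lay close together whereas oxPAPC replicate 2 was nearly as low as they were. On the log2 scale the difference was 0.60 ± 0.21 (SE, 95% interval 0.15 to 1.05), which did not pass (edgeR adjusted p = 0.0769).

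Cxcr6, the receptor of the membrane-bound chemokine Cxcl16, is found on activated and tissue-resident T cells. It had 14.0, 11.7, 8.52 and 9.84 CPM in oxPAPC replicates 1 to 4, against 8.38, 4.30, 9.60 and 4.05 CPM in control replicates 1 to 4. The control libraries fell into a higher pair, replicates 1 and 3, and a lower pair, and the higher pair reached into the oxPAPC range. It differed by a log2 fold change of 0.73 ± 0.28 (SE, 95% interval 0.14 to 1.32, edgeR adjusted p = 0.0982), which did not pass. It passed without control replicate 3 (0.98, edgeR adjusted p = 0.0283). Fyco1, the gene around Cxcr6, ran the other way, with 54.5 ± 7.66 CPM in oxPAPC and 77.9 ± 3.00 CPM in control libraries (SD, n = 4 each, log2 fold change -0.52, edgeR adjusted p = 0.0216). Its call was lost with scaling by library size (0.209) and in 4 of the 8 fits that leave out a library (up to 0.0660).

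The authors' deposited table called 4 of the 9 receptors, Ccr6 (adjusted p = 0.000107), Ccr8 (0.00286), Cxcr3 (0.0412) and Cxcr6 (0.0447), all higher with oxPAPC, against 7.88% called higher and 14.4% called in either direction among the genes with an adjusted p in the authors' deposited table. In the authors' deposited table Ccr4 stood just outside its threshold, at an adjusted p of 0.051, and the others had 0.101 (Ccr9), 0.36 (Cxcr4), 0.44 (Cxcr5) and 0.441 (Ccr7). Whether Cxcr3 and Cxcr6 are called thus depends on the test, whereas Ccr6 and Ccr8 were called by both. DESeq2, run here on all counts, called the same number, 4, all higher, against 7.49% of its genes called higher and 13.8% either way. All 9 estimated directions were the same in that table and in edgeR.

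The receptors of lymphoid organs did not pass the test. Ccr7, the receptor of Ccl19 and Ccl21 that brings naive T cells into lymph nodes, had 327, 299, 439 and 339 CPM in oxPAPC replicates 1 to 4, against 377, 480, 396 and 420 CPM in control replicates 1 to 4. Replicates 1, 2 and 4 of oxPAPC were below all controls, but oxPAPC replicate 3 was above all controls except replicate 2. It had a log2 fold change of -0.25 ± 0.17 (SE, 95% interval -0.62 to 0.12, edgeR adjusted p = 0.378).

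Cxcr4, the receptor of Cxcl12 in bone marrow and lymphoid tissue, had 16.0, 15.3, 21.4 and 22.8 CPM in oxPAPC replicates 1 to 4, against 21.5, 22.2, 27.8 and 22.4 CPM in control replicates 1 to 4. The lowest values are those of oxPAPC replicates 1 and 2. Replicate 3 of oxPAPC was just under the lowest control, and replicate 4 lay within the control range, so the groups overlap. Its log2 fold change was -0.31 ± 0.16 (SE, 95% interval -0.66 to 0.03, edgeR adjusted p = 0.234).

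Cxcr5, the receptor of Cxcl13 that brings T cells to B cell follicles, had 8.73, 9.52, 12.4 and 10.7 CPM in oxPAPC replicates 1 to 4, against 8.31, 9.13, 8.50 and 9.75 CPM in control replicates 1 to 4. The groups overlap, with oxPAPC replicates 3 and 4 above all controls. Its log2 fold change was 0.21 ± 0.17 (SE, 95% interval -0.14 to 0.57, edgeR adjusted p = 0.451). Bcl9l, which overlaps Cxcr5, had 41.6 ± 10.6 CPM in oxPAPC and 64.0 ± 13.3 CPM in control libraries (SD, n = 4 each, edgeR adjusted p = 0.0504). The intervals leave room for differences of either sign in Ccr7, Cxcr4 and Cxcr5, and a p that misses the threshold does not show equal levels.

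Ccr9, the receptor of Ccl25 that leads T cells to the small intestine, was the least abundant, with 24 to 41 counts in oxPAPC and 39 to 95 counts in control libraries. In CPM it had 2.09, 2.71, 1.06 and 1.47 in oxPAPC replicates 1 to 4, against 2.59, 3.55, 4.34 and 2.12 in control replicates 1 to 4. The lowest values are from oxPAPC replicates 3 and 4 and the highest from control replicate 3, and the groups overlap. The log2 fold change was -0.80 ± 0.33 (SE, 95% interval -1.51 to -0.10, edgeR adjusted p = 0.127), which did not pass. For comparison, Ccr7 had 4375 to 9944 counts in oxPAPC and 5675 to 9126 in control libraries.

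**Figure D4:**
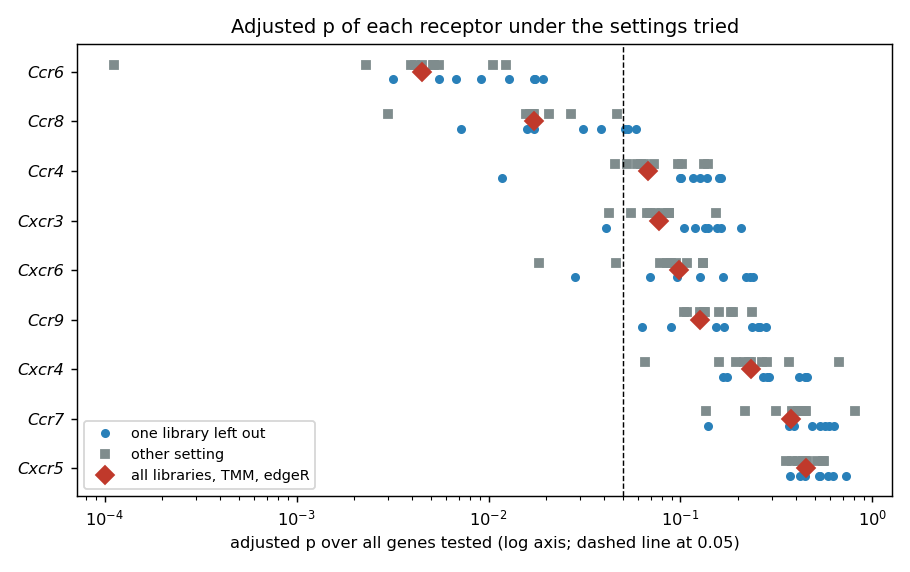
The adjusted p of each receptor on a log axis is shown with all libraries, with 1 library left out and under the other settings, and the dashed line marks 0.05. Every point of Ccr6 is left of the line, 3 of the Ccr8 points are right of it, and Ccr4, Cxcr3 and Cxcr6 have points on both sides.

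Ratios of receptors within a library do not depend on how libraries are scaled. The ratio of Ccr6 to Ccr7 counts was 0.174 ± 0.0311 in oxPAPC and 0.0834 ± 0.0180 in control libraries (SD, n = 4 each). The ratio of Ccr8 to Ccr7 was 0.234 ± 0.0561 in oxPAPC and 0.109 ± 0.0206 in control libraries, and that of Ccr4 to Ccr7 was 0.182 ± 0.0270 and 0.108 ± 0.00841. The groups did not overlap in any of these ratios, which are a description with no test. Ccr6, Ccr8 and Ccr4 are the receptors with the smallest adjusted p and were estimated higher, while Ccr7 was estimated lower. The gaps in these ratios, and in those to Foxp3, therefore follow in part from the choice of pairs. By itself, Ccr4 overlapped between groups in CPM. Relative to Foxp3, Ccr6 had a count ratio of 0.444 ± 0.111 in oxPAPC and 0.230 ± 0.0528 in control libraries, and Ccr8 one of 0.584 ± 0.108 and 0.299 ± 0.0445 (SD, n = 4 each), again without overlap. The ratio of Ccr8 to Ccr4 overlapped between groups, at 1.28 ± 0.213 in oxPAPC and 1.01 ± 0.141 in control libraries. As a share of the summed level per kilobase of all 9 receptors, Ccr7 took 54.1 ± 3.65% in oxPAPC and 68.6 ± 3.62% in control libraries, Ccr8 21.0 ± 3.71% and 12.5 ± 1.76%, Ccr6 10.5 ± 1.35% and 6.39 ± 1.08%, and Ccr4 6.93 ± 0.837% and 5.19 ± 0.254% (SD, n = 4 each). The summed CPM of the 9 receptors was 608 ± 115 in oxPAPC and 589 ± 42.3 in control libraries (SD, n = 4 each).

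Ligands of these receptors were also among the transcripts of the cultures. Of 14 ligand genes looked for, 7 were in the table and 4 passed the filter and were tested by edgeR, of which 3 rose and 1, Ccl25, did not pass. Among all genes tested, 6.75% were called higher and 13.3% in either direction. Ccl22, a ligand of Ccr4 that T cells and dendritic cells make, had 25.1, 28.6, 37.7 and 20.2 CPM in oxPAPC replicates 1 to 4, against 5.79, 6.64, 3.56 and 4.19 CPM in control replicates 1 to 4. Each oxPAPC library was more than 3 times as high as each control library (log2 fold change 2.49 ± 0.23 SE, edgeR adjusted p = 2.35e-05). Ccl1, the ligand of Ccr8, had 1.49, 0.661, 1.68 and 1.17 CPM in oxPAPC replicates 1 to 4, against 0.0665, 0.0755, 0.137 and 0.184 CPM in control replicates 1 to 4. It was low everywhere, at 10 to 38 counts in oxPAPC and 1 to 4 counts in control libraries, and the groups were apart (log2 fold change 3.28 ± 0.47 SE, edgeR adjusted p = 0.000547). Cxcl16, the ligand of Cxcr6, had 1.27, 1.79, 1.46 and 1.98 CPM in oxPAPC replicates 1 to 4, against 0.599, 0.528, 0.685 and 1.01 CPM in control replicates 1 to 4. The groups were apart here too (log2 fold change 1.17 ± 0.32 SE, edgeR adjusted p = 0.0259), but the call was lost in 5 of the 8 fits that leave out a library, with adjusted p-values up to 0.0861, and with the Gm26917 share in the fit (0.0524).

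Ccl25, the ligand of Ccr9, averaged 17.1 ± 3.40 CPM in oxPAPC and 20.4 ± 3.98 CPM in control libraries (SD, n = 4 each, log2 fold change -0.26 ± 0.18 SE, edgeR adjusted p = 0.393). The remaining 3 ligands in the table were under the filter and are given as counts. In the authors' comparison by DESeq2 their adjusted p was 3.9e-05 for Ccl20, 0.108 for Ccl17 and 0.0926 for Cxcl10. Ccl20, the ligand of Ccr6, had 12, 2, 12 and 18 counts in oxPAPC replicates 1 to 4 and 0 in each control library. Against a floor of 3 counts in each control library, its mean CPM was at least 3.52-fold higher in oxPAPC libraries, a bound that covers counting error only. Ccl17, the other ligand of Ccr4, had 7, 11, 13 and 7 counts in oxPAPC replicates 1 to 4, against 2, 5, 5 and 2 in control replicates 1 to 4. Cxcl10, a ligand of Cxcr3, had 4, 4, 6 and 11 counts in oxPAPC replicates 1 to 4, against 2, 0, 1 and 3 in control replicates 1 to 4. For each of these 3 the lowest oxPAPC count was above the highest control count, but in CPM the groups of Ccl17 overlapped, and the 2 counts of Ccl20 in oxPAPC replicate 2 are under the floor of 3. Beside the ligands, 1 of 4 tested macrophage markers and 1 of 3 tested dendritic cell markers rose. Mpeg1 reached 4.02 ± 0.584 CPM in oxPAPC and 0.203 ± 0.134 CPM in control libraries, while Lyz2, Csf1r and Cd68 did not pass (edgeR adjusted p = 0.458, 0.584 and 0.234). Flt3 reached 1.06 ± 0.220 CPM in oxPAPC and 0.184 ± 0.103 CPM in control libraries (SD, n = 4 each), while Zbtb46 and Xcr1 did not pass (edgeR adjusted p = 0.182 and 0.232). Whether such cells were present, and their part in the ligand levels, was not tested.

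**Figure D5:**
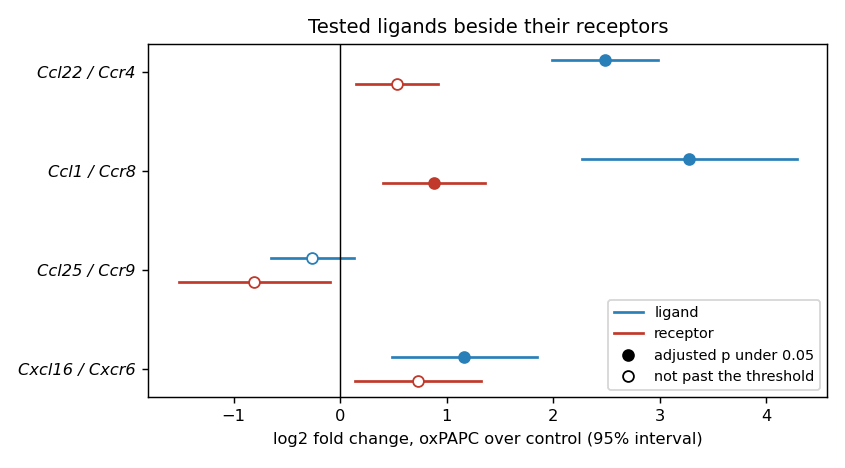
For the 4 tested ligand and receptor pairs, log2 fold changes (oxPAPC over control, edgeR) and 95% intervals are drawn with the ligand above its receptor and filled points for an adjusted p under 0.05. Ligand and receptor are both filled for Ccl1 (3.28) with Ccr8 (0.88), and neither is filled for Ccl25 with Ccr9.

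Of the other chemokine receptors looked for, 6 of 15 were in the table and 5 could be tested, of which 1 rose. This is to be read against the 6.75% of all genes tested that were called higher. The count was 0 without control replicate 1, 2 or 4, without oxPAPC replicate 1 or 4 and with a filter at 5 CPM. With DESeq2 it was 2. Ccrl2, Cx3cr1, Xcr1 and Ackr4 did not pass.

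Genes of the machinery behind the receptors mostly did not pass. Of 35 tested genes of G protein signalling and desensitization, 3 fell, 32 did not pass and 0 rose by edgeR or DESeq2, nor at an unadjusted p under 0.05. Across all genes tested, 6.52% were called lower and 6.75% higher by edgeR, the background for this and the following lists. Rasgrp2, an exchange factor that activates Rap1 and through it integrins, fell to 8.37 ± 0.563 CPM in oxPAPC, against 27.7 ± 5.32 CPM in control libraries (SD, n = 4 each, log2 fold change -1.72 ± 0.16 SE, edgeR adjusted p = 2.41e-05). Rgs2, which shortens G protein signals, fell to 11.6 ± 1.43 CPM in oxPAPC, against 21.0 ± 2.16 CPM in control libraries (log2 fold change -0.86 ± 0.15 SE, edgeR adjusted p = 0.00189). Rgs10, of the same family, averaged 103 ± 18.8 CPM in oxPAPC and 158 ± 26.0 CPM in control libraries (log2 fold change -0.62 ± 0.17 SE, edgeR adjusted p = 0.0283), and its call was lost with scaling by library size (0.123) and in 5 of the 8 fits that leave out a library (up to 0.0911). The median log2 fold change of the 35 genes was -0.08.

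Of 10 tested migration receptors outside the chemokine family, 2 rose, 1 fell and 7 did not pass, with a median log2 fold change of 0.07. Of all genes tested, 13.3% were called in either direction. Gpr183, an oxysterol receptor that places lymphocytes in lymphoid tissue, rose to 43.7 ± 5.40 CPM in oxPAPC, against 19.8 ± 3.88 CPM in control libraries (SD, n = 4 each, log2 fold change 1.14 ± 0.16 SE, edgeR adjusted p = 0.000448). Gpr15, a receptor for homing to the large intestine, averaged 2.75 ± 0.716 CPM in oxPAPC and 1.21 ± 0.437 CPM in control libraries (log2 fold change 1.15, edgeR adjusted p = 0.0275), with the call lost in 4 of the 8 fits that leave out a library (up to 0.0852). S1pr1, through which T cells leave lymphoid organs, averaged 47.9 ± 5.48 CPM in oxPAPC and 70.8 ± 11.1 CPM in control libraries (log2 fold change -0.56 ± 0.15 SE, edgeR adjusted p = 0.0218). Its call was lost with scaling by library size (0.213) and without oxPAPC replicate 1 (0.0698) or 2 (0.0621).

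Of 17 tested homing adhesion genes, 2 rose, 1 fell and 14 did not pass, with a median log2 fold change of 0.18. These counts are to be read against the 13.3% of all genes tested that were called in either direction. Icam1 and Icam2 encode ligands of the integrin LFA-1. Icam1 rose to 68.7 ± 12.4 CPM in oxPAPC, against 31.0 ± 8.25 CPM in control libraries (SD, n = 4 each, log2 fold change 1.15 ± 0.20 SE, edgeR adjusted p = 0.0017), and Icam2 to 4.91 ± 1.40 CPM, against 1.88 ± 0.439 CPM (1.40 ± 0.27 SE, edgeR adjusted p = 0.00416). Itga6, a subunit of laminin receptors, averaged 85.7 ± 10.5 CPM in oxPAPC and 123 ± 10.3 CPM in control libraries (log2 fold change -0.52 ± 0.14 SE, edgeR adjusted p = 0.0247), a call lost with scaling by library size (0.252) and in 5 of the 8 fits that leave out a library (up to 0.0899).

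Transcription factors tied to these receptors moved in both directions, since 6 of 25 tested rose, 6 fell and 13 did not pass. The count of those that fell was 3 without control replicate 2 and 3 without oxPAPC replicate 4. Tbx21 encodes T-bet, which directs Cxcr3 expression in Th1 cells and in Tregs, and rose to 21.2 ± 6.25 CPM in oxPAPC, against 4.28 ± 0.511 CPM in control libraries (SD, n = 4 each, log2 fold change 2.31 ± 0.21 SE, edgeR adjusted p = 1.98e-05). Its relative Eomes rose to 13.2 ± 4.16 CPM, against 4.67 ± 0.539 CPM in control libraries (edgeR adjusted p = 0.000659). Irf4 and Batf, partners in effector differentiation of T cells and Tregs, had log2 fold changes of 1.43 and 0.93 (edgeR adjusted p = 0.000189 and 0.000837). Bcl6, the factor of follicular T cells, which carry Cxcr5, fell to 1.98 ± 0.372 CPM in oxPAPC, against 4.54 ± 0.828 CPM in control libraries (log2 fold change -1.18 ± 0.24 SE, edgeR adjusted p = 0.00554). Klf3, a zinc finger factor, had a log2 fold change of -0.97 (edgeR adjusted p = 0.000597). The median over the 25 factors was -0.04. Among CD8 and natural killer cell markers, Cd8a rose to 6.81 ± 2.14 CPM in oxPAPC, against 2.17 ± 0.454 CPM in control libraries, and Klrk1 to 2.66 ± 0.405 CPM, against 0.601 ± 0.189 CPM (SD, n = 4 each). The other tested genes of these lists, Cd8b1, Tyrobp and Klrd1, did not pass (edgeR adjusted p = 0.840, 0.867 and 0.835), and the part of any such cells in the levels of Tbx21 and Eomes was not tested.

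The genes most like a receptor in profile were found by the root mean square distance between log2(CPM + 0.5) values over the 8 libraries, each gene centred on its own mean, among 9449 genes. For Ccr6 they included Trim34a (distance 0.0736), Wdr43 (0.0871) and H2-T24 (0.0922). For Ccr8 they were Hsp90aa1 (0.0986), Slfn5 (0.105), Ahsa1 (0.118) and Tubb4b (0.126), and for Ccr4 they were Tsnax (0.0801), Pa2g4 (0.0826), Cttn (0.0839) and Abcd3 (0.101). The profiles of Ccr6 and Ccr8 lay 0.211 apart, which placed Ccr8 at rank 216 among the genes nearest Ccr6, and Ccr6 at rank 58 among those nearest Ccr8. The distances are descriptions over 8 libraries that share their scaling.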

How the data were processed

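RNA of cultured mouse Tregs was sequenced, with 4 oxPAPC and 4 control libraries made after poly(A) selection, per the labels' protocols. Tools named in the submitters' processing notes are DESeq2 1.30.1, featureCounts 2.0.2 and STAR 2.7.8a, with the build GRCm38.p6. The authors deposited whole-number counts per gene, not normalized, per the file headers. The same table holds the authors' comparison by DESeq2, per the file headers, as log2 fold changes, p-values and adjusted p-values, of which the adjusted p-values are quoted. The authors' linear fold, mean signal after scaling and test score for each gene, per the file headers, were not used.

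Groups and replicate numbers follow the labels. Counts were scaled by TMM, filtered with filterByExpr (16434 of 19330 genes kept) and tested in edgeR 4.0.16 (R 4.3.3) by quasi-likelihood, with Benjamini-Hochberg adjustment and a threshold of 0.05. Standard errors are the log2 fold change over the square root of F, and intervals are at 95%. Depth was 14017583 to 21619731 counts per library, at a common biological coefficient of variation of 0.207. Levels per kilobase use the length of the longest protein-coding transcript of the basic GENCODE set. Summed marker levels were compared by an exact two-sided permutation test.

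The receptors, gene lists and tests were chosen with earlier results of these data known. Named genes are the receptors, up to 6 called genes of each list, the ligands, markers and, for the 3 receptors with the smallest adjusted p, the 4 nearest profiles among genes with a mean of at least 5 CPM; some genes this takes are given only in sums or are not reported here. Genes of the lists that are not in the table were not analysed here. Alternatives were RLE and library size scaling, a mean of 5 CPM as the filter or none, fits without structural RNA, DESeq2 1.42.0, limma-voom (limma 3.58.1) plain and with quality weights, a block for the replicate number, leaving out each library, lengths from the union of exons and, added after the data were seen, the share of Gm26917 as a covariate.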

Additional observations from a re-analysis of the deposited data

Results flagged for a closer look

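Among 78 groups of 4 values examined, 3 held a library far from the other 3, where chance gives about 4 (1 in 20). Cxcr4 reached 27.8 CPM in control replicate 3, against 21.5 to 22.4 CPM in the other control libraries. The summed CD8 T cell markers reached 18.7 CPM in oxPAPC replicate 3, against 10.9 to 12.0 CPM in the other oxPAPC libraries. The summed gamma delta T cell markers reached 2.24 CPM in control replicate 3, against 0.920 to 1.13 CPM in the other control libraries.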

How the results depend on the processing

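The direction of all 9 receptors was the same in each alternative that could be fitted (18, and 17 for Ccr9, which a filter at 5 CPM removes). Receptors called numbered 4 with DESeq2, all higher, (Cxcr3 0.63, adjusted p = 0.0427; Cxcr6 0.77, adjusted p = 0.0463), and Ccr4 passed with a filter at 5 CPM (0.51, edgeR adjusted p = 0.0458) and Cxcr6 with limma-voom quality weights (0.97, adjusted p = 0.0183). Cxcr3 passed without oxPAPC replicate 2 (edgeR adjusted p = 0.0408). The cause of these changes was not tested. Leaving out each library gave 1 to 4 receptors called, all higher, 16 to 25 genes called in the other lists, and 1390 to 2134 genes called (710 to 1057 higher, 680 to 1144 lower), with the fewest without control replicate 2. The log2 fold changes then ranged from 0.71 to 0.90 (Ccr6), 0.68 to 1.04 (Ccr8), 0.36 to 0.69 (Ccr4), 0.50 to 0.72 (Cxcr3), 0.55 to 0.98 (Cxcr6), 0.11 to 0.29 (Cxcr5), -0.38 to -0.18 (Ccr7), -0.41 to -0.22 (Cxcr4) and -1.06 to -0.60 (Ccr9). Scaling by library size moved the median of all genes to 0.12 and called 458 genes lower. By TMM the summed T cell markers were 2217 CPM in oxPAPC and 2394 CPM in control libraries (exact permutation p = 0.2). Scaling by library size turned this difference to 48.1 CPM higher with oxPAPC (exact permutation p = 0.743). By the same scaling, summed dendritic cell markers were 5.18 CPM higher with oxPAPC than in control libraries (exact permutation p = 0.0571). With the replicate number as a block, 1453 genes were called (708 lower), Ccr6 and Ccr8 remained called (adjusted p = 0.0106 and 0.0167) and Cxcl16 was not (0.0554), nor was Trgc2, and 3 of the transcription factors were called lower. Deviations of same-numbered libraries correlated at 0.321, -0.0528, -0.368 and -0.0354, and only 2 of 8 libraries had their highest correlation with the library of the same number. Pairing was therefore not assumed. With lengths from the union of exons, levels per kilobase were 14.5 for Ccr4 in control libraries, 26.1 and 14.8 for Ccr6 and 0.179 and 0.307 for Ccr9 in oxPAPC and control libraries, and 2.68 for Cxcr5 in control libraries, and Cxcr3 stood above Cxcr5 in the oxPAPC group. Of 390 fits of 22 other genes, 354 kept the call and direction, 36 lost the call and 0 reversed.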
